A study of Mus musculus with 12 samples.

Results

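Corticosterone (CORT), the main glucocorticoid of the mouse, was compared with vehicle in HT-22 cells, which descend from the hippocampus of the mouse. These 6 of the 12 arrays of the series were chosen by their treatment labels: 3 from cells given 100 nM CORT for 4 h and 3 from cells given vehicle for 4 h. All groups had been grown in serum stripped of hormones, were treated in serum-free medium and held the same carriers, 0.03% DMSO and 0.001% ethanol. The other 6 arrays came from cells given CORT together with 30 nM triiodothyronine (T3+CORT) or T3 alone. They share in the estimate of spread behind the calls, and they serve below as a repeat of the CORT contrast. For that repeat each set of 6 arrays was fitted alone. Each array carried 45281 probes, of which 17746 reached the limit of detection on at least 3 of the 12 arrays and were tested. They represent 9574 genes with a symbol, and 2707 tested probes had none. The cultures are of 1 cell line, and nothing in the labels says whether the replicates came from separate passages, so the p-values measure the spread between these arrays.

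Glucocorticoids act mainly through the glucocorticoid receptor, a ligand-activated transcription factor that waits in the cytoplasm with HSP90 and other chaperones. Bound by hormone, it moves to the nucleus, where it binds a palindromic DNA element near genes that it activates, and it can also lower transcription driven by other factors such as AP-1 and NF-kappaB. The hippocampus is one of the brain regions richest in this receptor and in the related mineralocorticoid receptor.

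The probes of the receptors gave little signal. The probe of *Nr3c1*, the glucocorticoid receptor gene, read 72.9 to 85.0 on CORT arrays and 77.0 to 85.4 on vehicle arrays, all under the limit of detection of 87.0. The probes of *Nr3c2*, the mineralocorticoid receptor gene, and of *Hsd11b1*, whose enzyme regenerates active glucocorticoid, also lay below the limit and were not tested. The level of these 3 transcripts was therefore not measured here, which says nothing about whether the cells make the receptors.

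The study describes HT-22 cells as neuronal, with enolase and neurofilament expressed and glial fibrillary acidic protein absent. Transcripts of neuronal markers were detected here only in part. A probe below the limit does not show that its transcript is absent. *Gfap*, the gene of the glial protein, was below the limit on all 12 arrays. Of 14 neuronal markers with a probe, 10 were below the limit on all 12 arrays, among them *Rbfox3*, *Map2*, *Snap25*, *Nefl* and *Dcx*, whereas *Syn1* and *Eno2* were above it on all 12. By contrast, 12 of 15 fibroblast and mesenchymal markers were above it on all 12 arrays, and their summed signal was 37136 to 38502 on CORT arrays and 33312 to 36098 on vehicle arrays. Within that list, CORT was higher for *Pdgfra*, a receptor for platelet-derived growth factor (log2 fold change 0.78, adjusted p = 3.6e-04), and *Dcn*, the proteoglycan decorin (0.50, 6.3e-04), and lower for the transcription factor *Twist1* (-0.34, 0.01). The call for *Twist1* was lost when the arrays were centred on reference genes. In limma 0 of the tested neuronal, glial and endothelial markers (4, 2 and 1) were called, and 1 neuronal marker had an unadjusted p under 0.05. Of 3 tested immune markers *Tmem119* was higher (0.54, 0.0015) and *Lyz2* lower (-0.43, 8.5e-04), and 5 of the 10 measured were below the limit on all arrays. The cells are called HT-22 cells below.

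The signal differed between CORT and vehicle for 3676 of the 17746 tested probes, or 20.7% (limma, Benjamini-Hochberg adjusted p under 0.05). Of these 1751 were higher (9.87%) and 1925 lower (10.8%), so that 47.6% of the calls were rises. This split depends on scaling: centring the arrays on 13 reference genes, which lay 0.077 lower on the log2 scale with CORT, gave 2497 higher and 857 lower (74.4% rises), and cyclic loess gave 1875 and 1716 (52.2%). The arrays of the 2 groups did not overlap for 3646 of the called probes, against 42.0% of all tested probes. The largest rises and falls named below were also picked among probes without overlap. Where it is stated for a called gene, it therefore adds little to the call. Rises were the larger changes. The median called rise was 1.31-fold and the median called fall 1.28-fold, 61 probes were at least 2-fold higher against 13 at least 2-fold lower, and 6 were at least 4-fold higher against 0 at least 4-fold lower. At the thresholds stated in the study's methods (unadjusted p under 0.02 and 1.5-fold) 425 probes passed (2.39%), 286 higher and 139 lower.

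**Figure D1:**
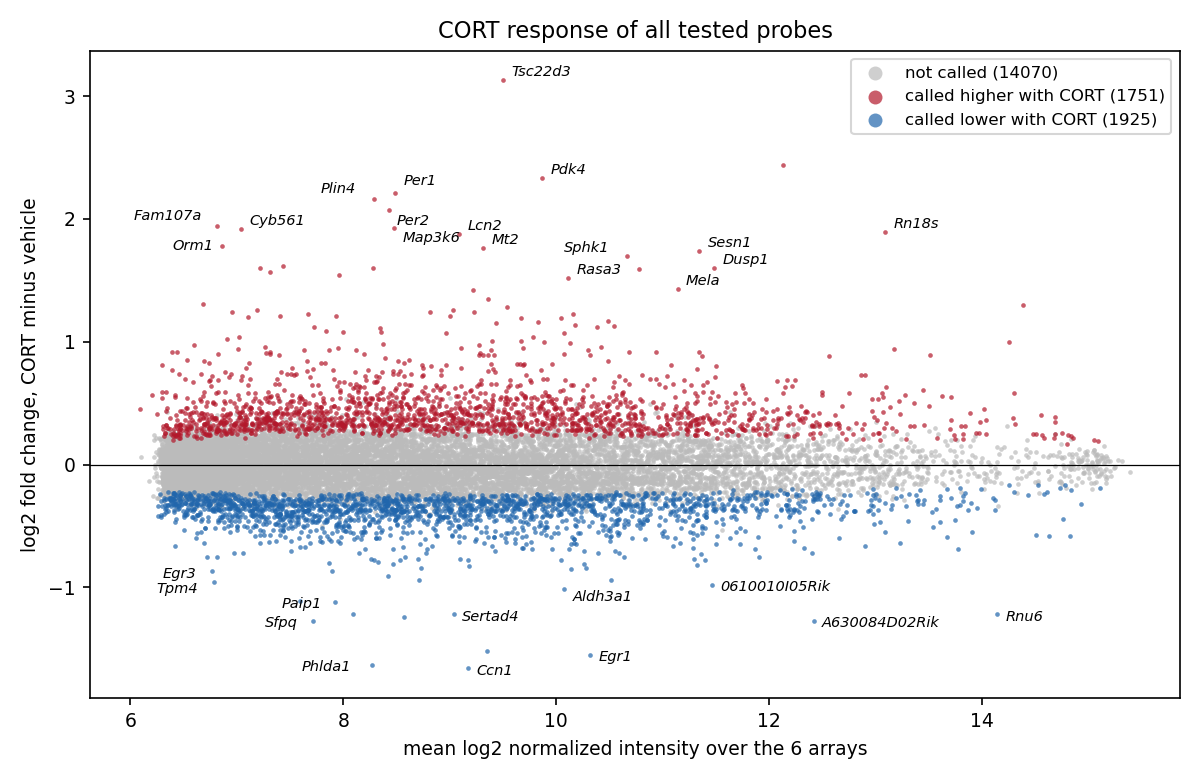
CORT response of the 17746 tested probes. Each point is a probe, placed by its mean log2 normalized intensity over the 6 arrays (x axis) and its log2 fold change, CORT minus vehicle (y axis); 1751 probes called higher are red, 1925 called lower blue and the other 14070 grey. The largest rise reaches 3.13 and the largest fall -1.66.

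The calls were not spread evenly over the range of signal. Among the 5916 brightest probes 822 were higher and 859 lower, and among the 5915 dimmest, with a mean signal of 68.9 to 146, 280 were higher and 327 lower. At a change of 1.5-fold or more, the dim probes gave 39 rises and 9 falls and the bright ones 132 and 77. The median 95% interval of a fold change extended by 0.20 (log2) on each side. Of the 3676 calls, 1676 were kept whichever 1 of the 6 arrays was left out (842 higher and 834 lower), and of the 425 probes that changed by 1.5-fold or more 412 were kept by that and by both other scalings. Array-to-array correlation over tested probes was 0.9955 to 0.9972 among CORT arrays, 0.9967 to 0.9976 among vehicle arrays and 0.9873 to 0.9908 between them. The labels name no slide. Array numbers in a figure of the study would place vehicle and T3 arrays before CORT and T3+CORT arrays, which could not be checked here. If these were different slides, slide and CORT cannot be told apart. Among the 25612 probes below the limit on every array, 7 were called and 6.89% had an unadjusted p under 0.05, against 33.8% of the tested probes.

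Genes that glucocorticoids are known to induce were mostly higher. Of the 45 genes on a list of such targets 33 were tested, 23 were higher, 1 was lower and the median log2 fold change was 0.66. Over all 9574 genes with a symbol, 11.3% were higher, 11.7% were lower and the median was -0.01. These are the background for each list count below. The list and its members were written with results of these arrays known, and 20 of its 23 rises were kept whichever array was left out. *Tsc22d3*, which encodes the glucocorticoid-induced leucine zipper, had 2 probes among the largest responses. Its dimmer one read 1836.3, 2312.5 and 2323.6 on CORT arrays, against 248.7, 231.9 and 253.1 on vehicle arrays (log2 fold change 3.13, standard error 0.16, adjusted p = 8.4e-10). This was the largest change of any probe, and every CORT array stood several-fold above every vehicle array.

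Regulators of the clock were also among the large rises. *Per1* encodes a period protein that represses the CLOCK and BMAL1 transcription factors. It read 700.7, 846.3 and 772.6 with CORT, against 179.7, 163.8 and 157.0 with vehicle (2.21 ± 0.10, log2 fold change ± standard error here and below, adjusted p = 2.7e-10). *Per2*, its paralog, read 699.2, 700.0 and 720.6 with CORT, against 169.9, 174.0 and 159.6 with vehicle (2.07 ± 0.10, 3.0e-10). The 2 period genes thus changed by nearly the same factor. Of 13 clock genes tested, 7 were higher and 2 lower, with a median of 0.41. *Tef*, a transcription factor of the PAR bZIP family whose expression follows the clock, read 1306.0, 1226.3 and 1273.8 with CORT, against 609.4, 619.6 and 616.9 with vehicle (1.04 ± 0.09, 5.0e-07). *Dbp*, of the same family, was higher by 0.58 (7.3e-04) and *Bhlhe40*, a repressor of clock transcription, by 0.82 (5.1e-05). The rises of *Arntl*, which encodes BMAL1 (0.48, adjusted p = 0.01), and *Csnk1d*, a kinase of the period proteins (0.41, 0.04), were lost on leaving out vehicle replicate 1, and that of *Csnk1d* also without 4 other arrays. *Per3* was below the limit of detection on all 3 CORT arrays and was at least 1.11-fold lower (0.029), a bound set against that limit, and the call was lost without any of 4 arrays and after centring on reference genes. *Csnk1e*, the other period kinase, was lower at its brighter probe in a call that was kept (-0.48, 5.8e-04), and its dimmer probe was not called (-0.17, 0.27). *Clock* (0.06, 0.66) and *Cry2* (0.20, 0.18) were not called.

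**Figure D2:**
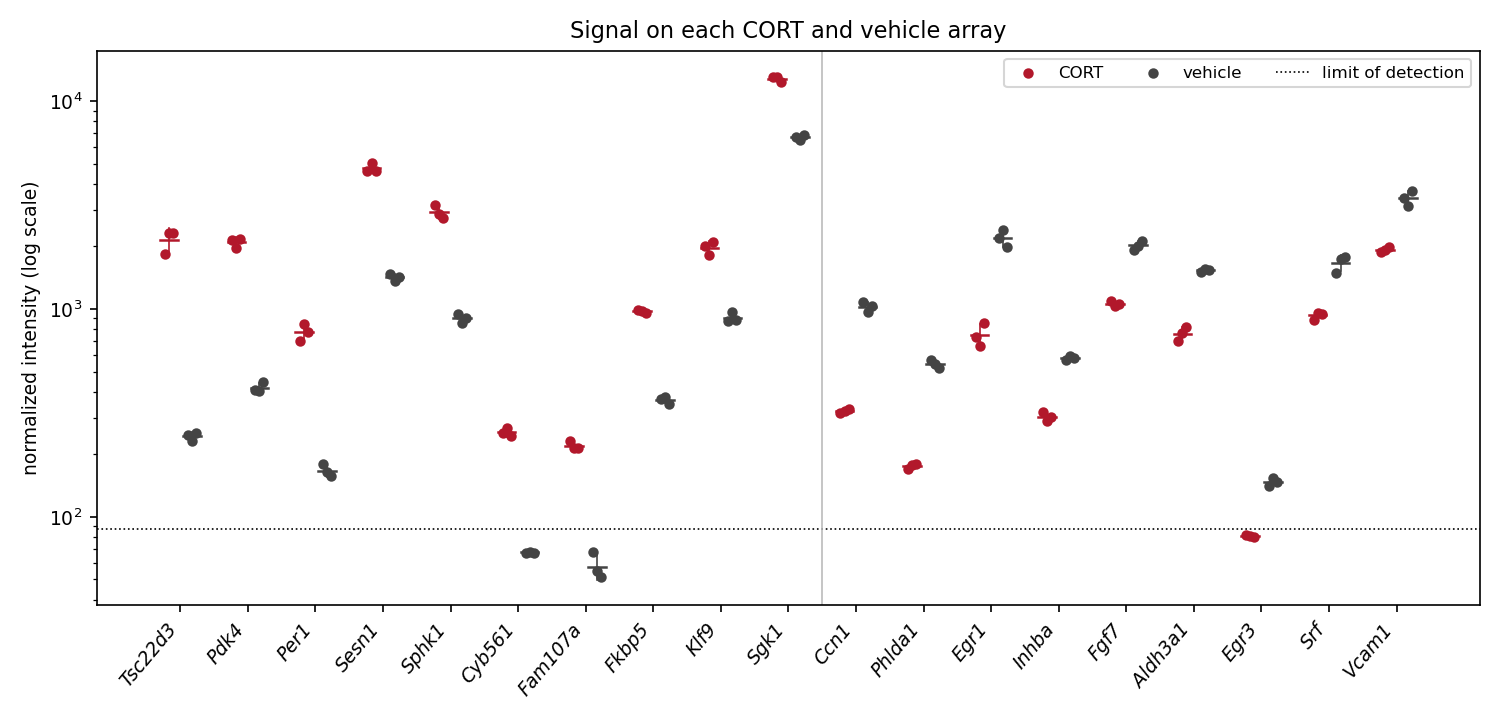
Normalized intensity of selected genes on each array, on a log axis, with CORT arrays left of vehicle arrays. Points are single arrays, horizontal bars the geometric mean and vertical lines 1 SD of the log2 values (n = 3 per group). The CORT and vehicle points of these genes do not overlap, for example 254.1, 268.3 and 243.7 against 67.2, 67.9 and 67.3 for *Cyb561*. The same holds for 3646 of the 3676 called probes.

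Several rises concerned fuel use and nutrient signals. *Pdk4* encodes a kinase that inhibits pyruvate dehydrogenase and so limits the entry of pyruvate into the citric acid cycle. It read 2157.9, 1971.3 and 2170.9 with CORT, against 407.1, 403.4 and 444.7 with vehicle (2.33 ± 0.08, 1.4e-11). *Pdp1* encodes the phosphatase that reverses that inhibition. It read 769.2, 769.2 and 763.6 with CORT, against 389.0, 372.8 and 435.3 with vehicle (0.95 ± 0.08, 6.9e-07). Thus a kinase and a phosphatase of the same complex were both higher. They were the only 2 of 25 genes of glycolysis and pyruvate dehydrogenase to be called, and the list's median was -0.06 (0.02 after centring on reference genes). *Pdk1*, *Pdk2* and *Pdk3* had log2 fold changes of -0.15, -0.06 and -0.02 and were not called.

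*Plin4*, which coats lipid droplets, read 693.1, 673.8 and 627.6 with CORT, against 141.6, 152.6 and 150.6 with vehicle (2.16 ± 0.09, 1.2e-10). *Angptl4*, a secreted inhibitor of lipoprotein lipase and a known glucocorticoid target in other tissues, went the other way. It read 340.2, 383.3 and 383.2 with CORT, against 517.3, 473.8 and 542.6 with vehicle (-0.47 ± 0.09, 0.0016), and it was the 1 member of the glucocorticoid-induced list to be lower. Of 23 genes of lipid droplets and fatty acid metabolism 4 were higher and 3 lower, and of 22 genes of cholesterol and fatty acid synthesis 1 was higher and 2 lower: *Lss*, lanosterol synthase (-0.56, 2.6e-04), and *Fdps*, farnesyl diphosphate synthase (-0.47, 0.0012). The shares called in these lists were 30.4% and 13.6%, beside 23% over all genes tested.

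*Sesn1* encodes a sestrin, which holds mTORC1 in check when leucine is short. It read 4616.3, 5064.8 and 4603.8 with CORT, against 1466.3, 1362.3 and 1431.6 with vehicle (1.74 ± 0.08, 1.2e-10). *Pik3r1*, the regulatory subunit of phosphatidylinositol 3-kinase, read 2466.3, 2144.9 and 2189.1 with CORT, against 1223.9, 1158.5 and 1208.3 with vehicle (0.92 ± 0.09, 1.2e-06). *Eif4ebp1*, the repressor of cap-dependent translation that mTORC1 phosphorylates, was higher by 0.52 (9.3e-05), and *Tsc2*, an upstream inhibitor of mTORC1, by 0.42 (0.0022). *Rptor*, the scaffold of mTORC1 (0.34, 0.035), and *Irs2*, an adaptor of the insulin receptor (0.33, 0.035), were also higher. The call for *Rptor* was lost without any of 4 arrays and that for *Irs2* whichever array was left out. *Igf1r*, the receptor for insulin-like growth factor 1, was lower (-0.42, 0.0034). In the whole list of 28 members 8 were higher and 2 lower, with a median of 0.10, and 5 rises and 1 fall were kept whichever array was left out. *Ddit4*, an mTORC1 inhibitor that glucocorticoids induce in many tissues, was at 0.05 (0.68), and *Sesn2*, the paralog, at 0.09 (0.58). In the related list of amino acid transport and ATF4 targets, 7 of 28 were higher and 1 lower, among them *Slc3a2* (0.56, 0.0094) and *Slc1a5* (0.53, 0.0067), which carry large neutral amino acids and glutamine, and *Atf4* itself was at 0.08 (0.64). Only 3 of these rises were kept whichever array was left out, and the list's share called was 28.6%, beside 23% over all genes tested.

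*Sgk1*, a kinase of ion transport and cell survival, was bright on all arrays. It read 13071.9, 13023.6 and 12385.6 with CORT, against 6710.4, 6521.7 and 6857.5 with vehicle (0.94 ± 0.07, 5.3e-08). Of the other 14 members of a list of sodium and ion transport genes, *Clic1* was higher (0.26, 0.04), a call lost on leaving out any of 5 arrays, *Clcn3*, a chloride-proton exchanger, was lower (-0.56, 3.2e-04), and 12 were not called. *Fkbp5*, an HSP90 co-chaperone that lowers the affinity of the receptor for hormone, was higher by 1.42 (3.7e-09). In a separate list of the receptor's chaperones and cofactors, which does not hold *Fkbp5*, 14 of 17 tested members were not called. The share called was 17.6%, beside 23% over all genes tested. Those lower were *Stip1*, which links HSP70 and HSP90 (-0.55, 1.3e-04), and *Ipo13*, an importin (-0.51, 3.9e-04). *Crebbp*, a histone acetyltransferase, was below the limit on all 3 vehicle arrays and at least 1.16-fold higher (0.032), which was lost on leaving out any of 5 arrays.

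The promoter of *Sgk1* was the only one among tested genes to hold a whole copy of the element that the receptor binds. This element, made of AGAACA and TGTTCT with 3 bases between them, was searched on both strands in windows of 300 bases, 250 before to 50 after each RefSeq gene start (build GRCm38.p6). Tested genes were matched by gene ID for 7813 of 9574. A whole copy was found in 3 of 27025 genes with a window (0.0111%), and a copy with at most 1 mismatch over the 12 letters in 52 (0.192%). Among the 7813 tested genes 7 had such a copy (0.0896%). Of these, 3 were among 877 called higher (0.342%) and 0 among 905 called lower, and the other 4, *Car14*, *Fcgr4*, *Plpp3* and *Pot1b*, were not called. The 3 higher ones are *Sgk1*, *Hdc*, which encodes histidine decarboxylase, the enzyme that makes histamine, and *Nrm*, which encodes nurim, a protein of the inner nuclear membrane. The brightest *Hdc* probe read 436.2, 430.6 and 417.8 with CORT, against 277.1, 263.6 and 224.4 with vehicle (0.75 ± 0.09, 3.5e-05), and its dimmer probe was not called (0.07, 0.53). *Nrm* read 5634.3, 5849.2 and 5923.0 with CORT, against 4532.2, 4517.6 and 4354.0 with vehicle (0.38 ± 0.08, 0.0024). For both genes each CORT array was above each vehicle array, and both changes were smaller than that of *Sgk1*. The 3 windows are printed to show where the element lies, with its 15 bases in capitals. It runs from -189 to -175 in *Sgk1* (chr10:21993640-21993939, plus strand, 1 of 6 windows of this gene), from -146 to -132 in *Hdc* (chr2:126618629-126618928, minus strand) and from -198 to -184 in *Nrm* (chr17:35861068-35861367, plus strand), counted from the gene start.
Sgk1: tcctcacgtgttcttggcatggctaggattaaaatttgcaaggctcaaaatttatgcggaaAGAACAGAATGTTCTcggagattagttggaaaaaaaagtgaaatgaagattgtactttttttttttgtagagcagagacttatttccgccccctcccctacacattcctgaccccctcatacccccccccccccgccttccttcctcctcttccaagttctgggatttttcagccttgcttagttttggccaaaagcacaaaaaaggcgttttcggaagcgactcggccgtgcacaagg
Hdc: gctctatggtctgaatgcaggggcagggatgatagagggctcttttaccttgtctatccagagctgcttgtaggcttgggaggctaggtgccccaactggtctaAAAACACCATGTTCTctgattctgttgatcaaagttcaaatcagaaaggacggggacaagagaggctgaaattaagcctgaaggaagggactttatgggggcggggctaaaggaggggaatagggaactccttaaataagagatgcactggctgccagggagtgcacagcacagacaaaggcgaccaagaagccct
Nrm: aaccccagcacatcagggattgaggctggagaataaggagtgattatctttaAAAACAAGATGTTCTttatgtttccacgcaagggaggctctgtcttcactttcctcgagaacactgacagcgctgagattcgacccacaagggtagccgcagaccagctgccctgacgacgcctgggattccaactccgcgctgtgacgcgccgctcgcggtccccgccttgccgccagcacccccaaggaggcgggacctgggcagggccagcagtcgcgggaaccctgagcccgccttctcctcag

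The leading genes were mostly without such a copy in these windows. Of 148 genes with a window whose brightest probe rose by at least 1.5-fold, 2 held one with at most 1 mismatch, and of 61 that fell as much 0 did. AGAACA alone, on either strand, was found in 21.3% of all genes, 14.7% of tested genes, 16.2% of those higher and 12.2% of those lower. The AP-1 site TGAGTCA was in 5.13% of genes called higher and 4.97% of genes called lower, against 4.52% of tested genes. These matches are letters in a short window and do not show binding.

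Other large rises were in genes of varied function. *Sphk1*, which makes the lipid mediator sphingosine 1-phosphate, read 3158.3, 2879.1 and 2737.1 with CORT, against 945.7, 857.8 and 902.0 with vehicle (1.70 ± 0.08, 3.0e-10). *Map3k6*, a kinase of the stress-activated cascade, read 751.3, 702.9 and 639.5 with CORT, against 184.2, 188.4 and 175.5 with vehicle (1.93 ± 0.10, 3.6e-10). *Rasa3*, which switches Ras off by speeding its hydrolysis of GTP, read 2011.3, 1850.3 and 1769.9 with CORT, against 593.3, 664.9 and 702.7 with vehicle (1.52 ± 0.10, 1.2e-08). Each of the 3 was far above its vehicle range on every CORT array. *Slc10a6*, a transporter of sulfated steroids, was higher by 1.60 (1.5e-08) and *Foxred2*, a flavoprotein of the endoplasmic reticulum, by 1.57 (6.5e-10). *Ccdc134* was higher by 1.54 (8.1e-07). *Mela* was higher by 1.43 (2.3e-05), at a probe whose name comes from the study's tables.

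Some genes were above the limit of detection only with hormone. There were 63 called probes below the limit on all 3 vehicle arrays and above it on all 3 CORT arrays, and 72 with the opposite pattern. For these only a bound can be given, set against the limit of 87.0 on the vehicle side. *Cyb561*, a membrane protein that passes electrons from ascorbate, read 254.1, 268.3 and 243.7 with CORT, against 67.2, 67.9 and 67.3 with vehicle, and was at least 2.93-fold higher (adjusted p = 3.0e-10). *Fam107a*, an actin-associated protein that glucocorticoids and stress induce in brain, read 231.6, 214.9 and 214.1 with CORT, against 67.9, 54.6 and 51.3 with vehicle, and was at least 2.53-fold higher (3.0e-10). *Orm1*, the acute-phase plasma protein orosomucoid, was at least 2.48-fold higher (2.9e-08), *Lims2*, an adaptor at integrin adhesions, at least 2.19-fold (1.6e-07) and *Ear3*, an eosinophil-associated ribonuclease, at least 1.87-fold (3.3e-07). Members of the *Ear* family are close in sequence, so the source of that signal is uncertain.

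In the other direction the 5 largest changes were in *Egr3*, an early growth response factor (at least 1.69-fold lower, adjusted p = 6.5e-06), the mitochondrial gene ND3 (mtDNA_ND3, at least 1.58-fold, 2.7e-06), *Epha2*, an ephrin receptor (at least 1.26-fold, 8.3e-04), LOC666979 (at least 1.23-fold, 4.3e-06) and *Bod1l* (at least 1.16-fold, 0.0011). *Egr3* read 81.5, 80.8 and 80.3 with CORT, against 140.2, 154.5 and 147.9 with vehicle. Its CORT values were all at the level of undetected probes.

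Genes of the immediate early response, which growth factors and serum switch on through MAP kinases and serum response factor, were more often lower than higher. Of 22 tested 10 were lower, 2 higher and 10 not called, with a median of -0.16 (9 lower, 3 higher and a median of -0.08 after centring on reference genes), and 9 of the falls were kept whichever array was left out. *Egr1*, a zinc finger factor of this class, read 737.1, 664.7 and 856.6 with CORT, against 2191.6, 2393.7 and 1993.0 with vehicle (-1.55 ± 0.10, 1.5e-08). *Phlda1*, a pleckstrin homology protein induced by growth factors, read 170.0, 177.4 and 179.9 with CORT, against 567.9, 544.3 and 518.6 with vehicle (-1.63 ± 0.10, 8.0e-09). *Ier3* read 809.1, 791.0 and 815.6 with CORT, against 1458.6, 1333.5 and 1359.6 with vehicle (-0.78 ± 0.10, 3.5e-05). All 3 were lower on each CORT array than on any vehicle array. *Jun*, a subunit of AP-1, was lower by a smaller amount (-0.54, 0.0023), and so were *Egr2* (-0.50, 0.0017), *Hbegf*, a ligand of the epidermal growth factor receptor (-0.52, 6.6e-04), and *Plaur*, the urokinase receptor (-0.42, 0.0018). The fall of *Junb* (-0.34, 0.04) was lost whichever array was left out. *Myc* (0.03, 0.93), *Klf4* (-0.07, 0.79) and *Fosb* (0.04, 0.86) were not called. The members called higher were *Id1* (0.77, 3.5e-04) and *Id2* (0.34, 0.029, lost without any of 5 arrays), inhibitors of helix-loop-helix factors that bone morphogenetic proteins also induce.

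*Srf*, which encodes serum response factor itself, read 886.6, 957.1 and 949.7 with CORT, against 1497.2, 1730.3 and 1773.4 with vehicle (-0.84 ± 0.09, 5.6e-06). Its promoter is printed because the gene is known to be under the control of its own product, through CArG boxes, the sites that serum response factor binds. The window (chr17:46556113-46556412, minus strand) holds 2 of them, in capitals, which start at -82 and -62. A CArG box was found in 1.81% of all genes with a window, 1.64% of tested genes, 2.05% of those called higher and 1.99% of those called lower.
Srf: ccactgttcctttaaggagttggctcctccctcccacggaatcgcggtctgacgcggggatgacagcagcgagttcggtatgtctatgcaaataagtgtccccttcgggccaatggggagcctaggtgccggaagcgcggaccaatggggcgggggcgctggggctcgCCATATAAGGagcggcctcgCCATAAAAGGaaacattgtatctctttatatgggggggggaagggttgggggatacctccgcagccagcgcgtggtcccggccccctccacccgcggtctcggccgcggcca

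The wider list of actin cytoskeleton genes and of targets of serum response factor and YAP was divided. Of 31 tested 11 were lower and 6 higher, with a median of -0.13, but after centring on reference genes 7 were lower and 7 higher. *Ccn1*, a matricellular protein and a standard target of both factors, read 316.6, 324.2 and 330.9 with CORT, against 1078.5, 966.7 and 1034.5 with vehicle (-1.66 ± 0.14, 5.7e-07), and its second probe fell by 1.52 on the log2 scale. *Ccn2*, its paralog and also a YAP target, read 9783.3, 9489.3 and 10799.5 with CORT, against 7348.2, 7119.7 and 7895.1 with vehicle (0.43 ± 0.09, 0.0023). The 2 paralogs thus moved in opposite directions, *Ccn1* by far the more. *Edn1*, the vasoconstrictor endothelin 1, read 913.5, 819.1 and 872.3 with CORT, against 469.5, 478.8 and 455.7 with vehicle (0.89 ± 0.08, 1.2e-06). *Axl*, a receptor tyrosine kinase, was higher by 0.63 (1.2e-05), and *Tead1*, the DNA-binding partner of YAP, was lower (-0.56, 9.3e-04). Among structural genes *Tmsb4x* (-0.54, 0.0015) and *Cfl1* (-0.51, 0.0054), which bind actin monomers and sever filaments, and *Tpm1*, a tropomyosin (-0.38, 0.0051), were lower, and *Actn1*, which cross-links filaments, was higher (0.45, 0.0023). The fall of *Tpm4* was largest at a dim probe (-0.96, 2.2e-04), while its brightest probe gave -0.39 (0.0043).

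**Figure D3:**
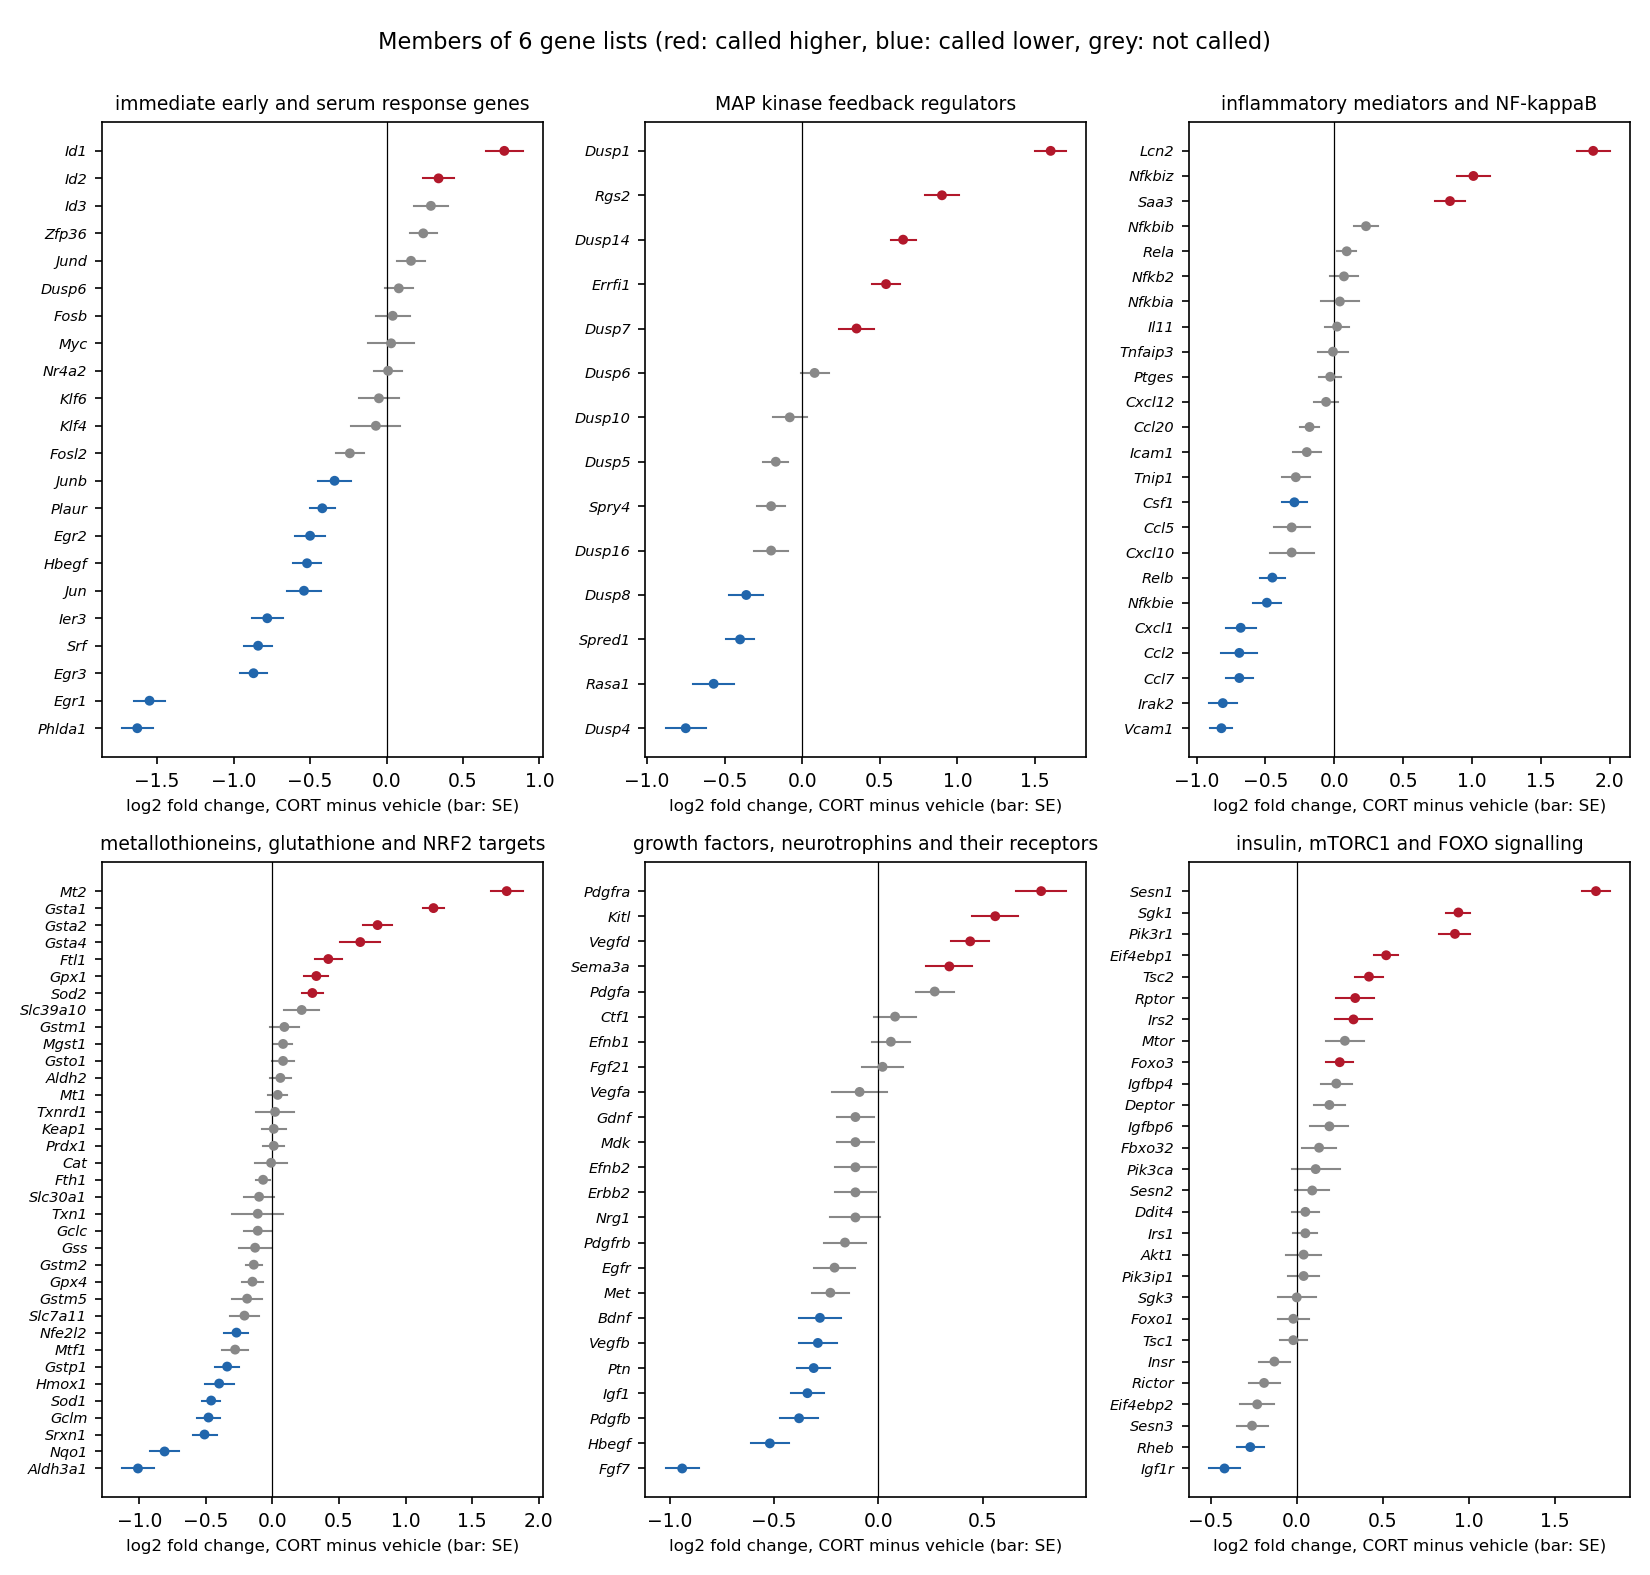
Log2 fold change, CORT minus vehicle (x axis), of the tested members of 6 gene lists at their brightest tested probe. Bars are standard errors from the model (n = 3 arrays per group). Called members lie on both sides of 0 in each list, with 10 of 22 immediate early genes lower, 8 of 24 inflammatory genes lower and 8 of 28 genes of insulin and mTORC1 signalling higher.

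The regulators that restrain MAP kinases did not move as a block. *Dusp1*, a phosphatase of p38 and JNK, read 5414.4, 4520.0 and 5088.9 with CORT, against 1486.6, 1625.3 and 1855.0 with vehicle (1.60 ± 0.10, 9.5e-09). *Dusp14* was higher by 0.65 (4.4e-05), *Rgs2*, which turns off Gq proteins, by 0.90 (2.4e-05) and *Errfi1*, an inhibitor of the epidermal growth factor receptor, by 0.54 (7.4e-04). *Dusp4* read 86.0, 85.6 and 88.3 with CORT, against 132.4, 152.0 and 153.7 with vehicle (-0.75 ± 0.13, 7.8e-04). *Rasa1*, another Ras GTPase-activating protein, was lower (-0.57, 0.0062), and so was *Spred1*, an inhibitor of Raf activation (-0.40, 0.0048). In all, 5 of 14 were higher and 4 lower, with a median of -0.13. *Dusp6*, the phosphatase of ERK, was at 0.08 (0.59).

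Genes of inflammation were more often lower than higher. Of 24 tested 8 were lower and 3 higher, with a median of -0.19. *Vcam1*, an adhesion molecule for leukocytes, read 1885.8, 1920.8 and 1976.2 with CORT, against 3415.2, 3126.0 and 3693.0 with vehicle (-0.82 ± 0.08, 1.5e-06). The chemokines *Ccl2* (-0.69, 0.0013), *Ccl7* (-0.69, 1.7e-04) and *Cxcl1* (-0.68, 3.1e-04) were lower by nearly the same amount. *Irak2*, a kinase of interleukin 1 and Toll-like receptor signals, was lower at both probes named (-0.91, 5.1e-06, and -0.81, 2.5e-05), and *Relb*, an NF-kappaB subunit, was lower by less (-0.45, 0.0026). The 3 that were higher are acute-phase or regulatory genes. *Lcn2*, which binds bacterial siderophores, read 801.9, 1117.0 and 1268.0 with CORT, against 293.0, 284.2 and 274.4 with vehicle (1.88 ± 0.12, 1.7e-08). *Nfkbiz*, a nuclear member of the I-kappaB family, read 1357.0, 1069.3 and 1070.8 with CORT, against 535.8, 635.8 and 563.6 with vehicle (1.01 ± 0.12, 2.5e-05). *Saa3*, a serum amyloid A protein, was higher by 0.84 (5.3e-05). *Nfkbia*, the I-kappaB alpha gene that glucocorticoids induce in lymphocytes, was at 0.04 (0.88), and *Tnfaip3* at -0.01 (0.95). Of 25 interferon-induced genes 2 were higher and 2 lower, or 16% called, beside 23% over all genes tested. The largest of these was *Gbp2*, a guanylate-binding protein (-0.70, 8.1e-05).

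Proteases and matrix enzymes that stress and AP-1 regulate went one way in this scaling, with 9 of 14 lower and 0 higher and a median of -0.32 (limma, and at an unadjusted p under 0.05 11 lower and 0 higher). After centring on reference genes 6 were lower and 1 was higher, and 5 falls were kept whichever array was left out. *Plau*, urokinase, read 98.5, 102.9 and 93.3 with CORT, against 149.3, 158.8 and 178.3 with vehicle (-0.72 ± 0.08, 1.7e-05). *Mmp11*, a matrix metalloproteinase, was lower (-0.51, 6.1e-04), and so were *Adamts4*, an aggrecanase (-0.47, 0.0026), and *Timp3*, an inhibitor of these enzymes (-0.42, 0.0025). *Adamts1* was lower at its brightest probe (-0.37, 0.025) and higher at a dimmer one (0.43, 0.0046), so its direction is not settled. Structural matrix genes were divided, with 6 of 23 higher and 4 lower. *Vcan*, the proteoglycan versican, read 240.0, 198.3 and 209.0 with CORT, against 98.5, 120.2 and 113.5 with vehicle (0.96 ± 0.10, 2.8e-06). *Col6a1* (0.58, 2.0e-05) and *Col5a1* (0.41, 0.0035) were higher, while *Sparc* (-0.47, 0.0041), *Tnc* (-0.41, 0.0034) and *Col4a1* (-0.37, 0.0055) were lower. At another bright probe neither *Sparc* (-0.11, 0.46) nor *Col6a1* (0.08, 0.54) was called, while a dim *Col6a1* probe was higher (0.36, 0.0027). *Col1a1* (-0.21, 0.37) and *Fn1* (-0.15, 0.22), the main fibrillar collagen and fibronectin, were not called.

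**Figure D4:**
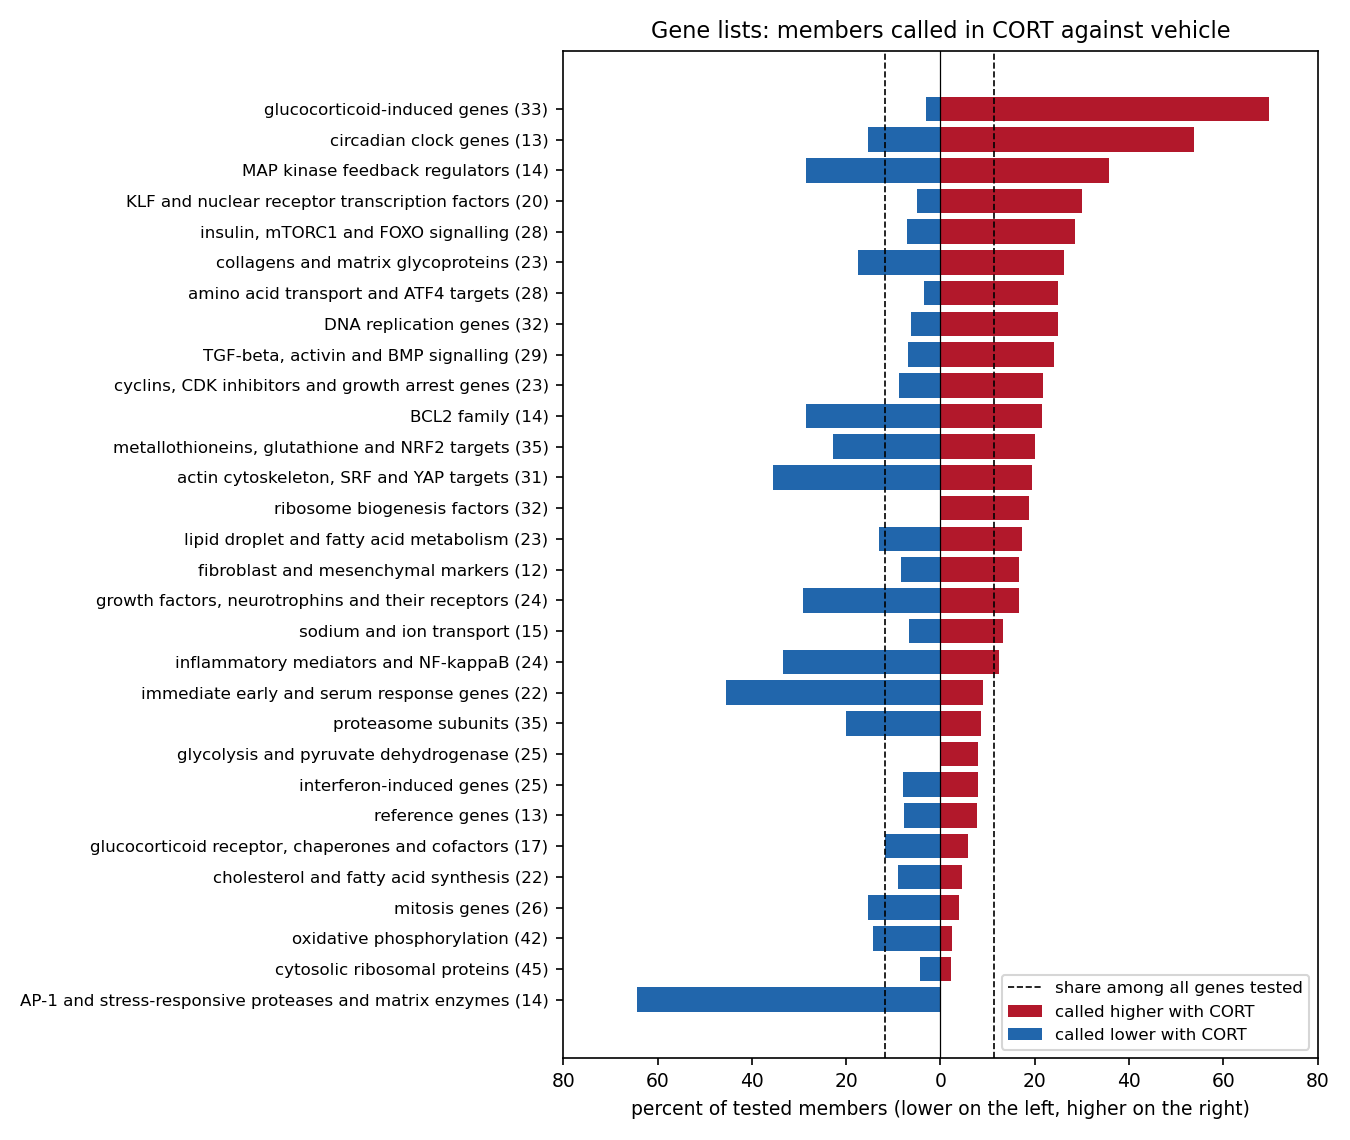
Share of tested members called higher or lower with CORT for the 30 lists with at least 10 tested members. Bars give percent of tested members, and dashed lines mark the shares over all 9574 genes, 11.3% higher and 11.7% lower. Glucocorticoid-induced genes (23 of 33) and clock genes (7 of 13) have the highest shares called higher, and proteases (9 of 14) the highest share called lower.

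Growth factors and their receptors were called in both directions, 7 lower and 4 higher of 24, and 4 and 5 after centring on reference genes. *Fgf7*, keratinocyte growth factor, read 1087.7, 1031.2 and 1051.3 with CORT, against 1928.3, 2011.3 and 2129.8 with vehicle (-0.94 ± 0.08, 3.8e-07). It was lower on every CORT array by a wide margin. *Bdnf*, a neurotrophin, was lower at its brighter probe (-0.28, 0.049), a call lost whichever array was left out, and was at 0.18 (0.39) at the other. *Pdgfra* read 3712.2, 3133.9 and 3234.7 with CORT, against 2049.9, 1898.9 and 1927.4 with vehicle, and *Kitl*, the ligand of the KIT receptor, was higher by 0.56 (0.0017). Of 4 tested genes of the prolactin and proliferin family and its receptors, *Ghr*, the growth hormone receptor, was higher (0.43, 0.0038) and the proliferins *Prl2c3* (-0.38, 0.0076) and *Prl2c4* (-0.26, 0.032, lost without any of 5 arrays) were lower. Proliferin genes are near-identical copies, so their probes may share signal.

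In the TGF-beta superfamily 7 of 29 were higher and 2 lower, or 31% called, beside 23% over all genes tested. *Inhba*, the subunit of activin A, read 320.1, 289.5 and 301.6 with CORT, against 567.2, 594.4 and 584.0 with vehicle (-0.94 ± 0.08, 8.8e-07). *Fstl3*, a follistatin-like protein that binds activin, was higher (0.51, 0.0013), as was *Tgfbr3*, the co-receptor betaglycan (0.69, 5.7e-05). *Id4*, an inhibitor of helix-loop-helix factors, read 201.9, 174.7 and 184.3 with CORT, against 83.5, 84.4 and 105.6 with vehicle (1.04 ± 0.11, 4.6e-06). A ligand was thus lower while a binding protein of it was higher.

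Transcription factors of the KLF and nuclear receptor families were higher in 6 of 20 cases and lower in 1. The share called was 35%, beside 23% over all genes tested. *Klf9*, a known direct target of the receptor in hippocampal cells, read 2013.7, 1811.1 and 2099.3 with CORT, against 875.5, 963.0 and 886.5 with vehicle (1.12 ± 0.09, 1.2e-07). *Vdr*, the vitamin D receptor, read 936.6, 972.5 and 967.9 with CORT, against 494.0, 453.2 and 484.2 with vehicle (1.01 ± 0.09, 4.0e-07). *Klf13*, a relative of *Klf9*, was higher by 0.78 (3.4e-05) and *Klf2* by 0.61 (7.5e-05). No CORT array of these 4 genes overlapped a vehicle array, which held for 3646 of the 3676 called probes.

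Detoxifying genes were divided, with 7 of 35 higher and 8 lower (7 and 5 after centring on reference genes). *Mt2*, a metallothionein, read 1213.3, 1311.4 and 1009.0 with CORT, against 364.2, 350.1 and 324.8 with vehicle (1.76 ± 0.12, 2.6e-08). Its neighbour *Mt1* was at 0.04 (0.73), so the 2 genes, which glucocorticoids usually induce together, differed on these arrays at the probes measured. The glutathione transferase *Gsta1* read 372.8, 372.8 and 371.3 with CORT, against 166.9, 165.0 and 150.1 with vehicle (1.21 ± 0.08, 1.7e-08). *Gsta2* was higher by 0.79 (1.3e-04), and as these paralogs are close in sequence, their probes may share signal. The glutathione transferase *Gsta4* (0.66, 0.0043), the ferritin light chain *Ftl1* (0.42, 0.0092, lost without vehicle replicate 1) and the peroxidase *Gpx1* (0.33, 0.014, lost without vehicle replicate 3) were higher as well. The list includes targets of NRF2, the factor that responds to oxidants, and these were not counted apart from its other members. Other members were lower. *Aldh3a1*, an aldehyde dehydrogenase, read 697.8, 768.1 and 817.7 with CORT, against 1506.6, 1550.1 and 1544.3 with vehicle (-1.01 ± 0.12, 1.9e-05). *Nqo1*, a quinone reductase, read 824.7, 1034.2 and 933.0 with CORT, against 1769.9, 1525.2 and 1582.5 with vehicle (-0.81 ± 0.11, 7.4e-05). *Srxn1*, sulfiredoxin (-0.51, 6.0e-04), and *Gclm*, a subunit of the enzyme that starts glutathione synthesis (-0.48, 0.0011), were also lower, while *Txnrd1* was at 0.02 (0.95) and *Gclc* at -0.11 (0.45).

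Genes of growth and division were called in both directions. The share called was 31.2% for replication, 19.2% for mitosis and 30.4% for cyclins, CDK inhibitors and growth arrest genes. It was 50% for the BCL2 family, beside 23% over all genes tested. Of 32 replication genes 8 were higher and 2 lower, and 2 of the rises and 0 of the falls were kept whichever array was left out. The rises kept were *Pold1*, the catalytic subunit of DNA polymerase delta (0.66, 1.3e-04), and *Cdt1*, a licensing factor (0.40, 0.0056). Of 26 mitosis genes 1 was higher and 4 lower, and 3 of the falls were kept in this way. Those lower included *Top2a*, topoisomerase II (-0.61, 1.3e-04), and *Pttg1*, securin (-0.55, 5.5e-04). Of 23 cyclins, CDK inhibitors and growth arrest genes 5 were higher and 2 lower, of which 2 rises and 1 fall were kept, and *Cdkn1a*, the CDK inhibitor p21, was at 0.05 (0.71). In the BCL2 family 3 of 14 were higher and 4 lower. *Bcl2l1*, whose main product BCL-XL prevents cell death, read 222.1, 278.1 and 297.8 with CORT, against 159.3, 176.6 and 149.6 with vehicle (0.71 ± 0.12, 5.7e-04), and *Bad*, which promotes it, was lower (-0.46, 5.4e-04).

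In the large complexes the share of genes called was 6.67% for cytosolic ribosomal proteins, 16.7% for oxidative phosphorylation and 28.6% for the proteasome, beside 23% over all genes tested. Of 45 cytosolic ribosomal proteins 42 were not called, of 42 genes of oxidative phosphorylation 35 (6 lower and 1 higher, and 2 and 5 after centring on reference genes) and of 35 proteasome subunits 25. In the proteasome *Psmd8* was higher (0.67, 4.3e-05) and *Psme3*, the subunit of a nuclear activator, lower (-0.53, 1.5e-04). Of 32 ribosome biogenesis factors 6 were higher and 0 lower in the limma fit (9 and 0 at an unadjusted p under 0.05), and 5 of the rises were kept whichever array was left out. *Nop14*, which processes the 18S rRNA precursor, read 853.9, 869.3 and 837.5 with CORT, against 431.8, 488.7 and 445.8 with vehicle (0.91 ± 0.11, 2.3e-05). *Pes1* (0.61, 5.4e-04), *Heatr1* (0.49, 0.0019) and *Polr1a*, the largest subunit of RNA polymerase I (0.41, 0.0052), were also higher. Genes used as references were at 0.10 (*Ppia*, 0.17), -0.16 (*Gapdh*, 0.12), -0.12 (*Hprt*, 0.27) and -0.16 (*Tbp*, 0.21), with adjusted p in parentheses, and none of these 4 was called. In the whole reference list of 13, *Actb* was higher and *Tfrc*, the transferrin receptor, lower (-0.66, 1.6e-04).

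Noncoding RNAs gave some of the brightest changes. The 3 probes of the 18S ribosomal RNA (*Rn18s*, named by the study's tables) were higher by 1.00 to 1.89, the largest at a probe that read 17788.8, 17335.2 and 15359.2 with CORT, against 4174.0, 4449.8 and 5057.4 with vehicle (adjusted p = 1.7e-07). A dim probe of the 28S RNA, *Rn28s1*, was at 0.01 (0.98). *Rnu6*, the U6 small nuclear RNA of the spliceosome, read 11706.8, 11528.1 and 12350.5 with CORT, against 26037.9, 28884.0 and 28060.7 with vehicle (-1.22 ± 0.09, 4.3e-08). All 5 tested probes of small nucleolar RNAs, which guide the modification of ribosomal RNA, were lower, by -0.27 (*Snord123*, 0.045) to -0.69 (*Snora65*, 1.3e-04). Among all tested probes 10.8% were lower. *Snora65* is counted again at a probe with -0.41. *Snora69* was below the limit on all 3 CORT arrays and at least 1.11-fold lower, and the arrays of *Snord123* overlapped. These RNAs mostly lack a poly(A) tail, so how much of them enters the labelled sample depends on the RNA and its priming, and the part of this in the changes was not tested. The study's tables list probes that it called regulated on these arrays. Unannotated 18S or mitochondrial probes that did not respond thus have no name here, and the shared direction is partly set by this naming. The mitochondrial transcripts named by those tables or the array were lower as well. mtDNA_ND5, a subunit of complex I, read 767.5, 903.7 and 858.3 with CORT, against 1467.3, 1558.3 and 1514.2 with vehicle (-0.85 ± 0.12, 1.1e-04). mtDNA_ND2 (-0.75, 0.0049), mtDNA_COXII (-0.60, 0.024) and *CYTB* (-0.21, 0.023) were lower by less, and the calls of the last 2 were each lost without any of 4 arrays, that of *CYTB* also after centring on reference genes. Against them stand the 42 nuclear genes of oxidative phosphorylation, with a median of -0.06.

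The remaining large falls included RNA-binding proteins and unannotated transcripts. *Sfpq*, a nuclear splicing factor, read 128.0, 136.1 and 142.7 with CORT, against 394.8, 310.0 and 282.3 with vehicle (-1.27 ± 0.12, 1.0e-06). *Paip1*, which binds the poly(A)-binding protein, read 165.7, 169.9 and 160.1 with CORT, against 340.9, 366.5 and 367.3 with vehicle (-1.12 ± 0.09, 4.3e-07). *Sertad4* was lower by a similar amount (-1.22, 1.1e-07), and *Cldnd1* by less (-0.84, 1.1e-04). The transcripts A630084D02Rik (-1.27, 6.8e-07) and 0610010I05Rik (-0.98, 1.3e-04), named from the study's tables, were bright. *Calm2*, a calmodulin gene, was lower at a dim probe (-0.87, 2.0e-04) and not called at its bright one (-0.09, 0.62).

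Of the 10 brightest called probes named by rule, *Rnu6* changed the most (-1.22), and the other 9 were between -0.44 and 0.24. *S100a11*, a calcium-binding protein, read 24888.8, 23576.5 and 23290.6 with CORT, against 30939.6, 33534.7 and 33051.1 with vehicle (-0.44 ± 0.06, 1.3e-04), and *Anxa2*, a membrane-binding annexin, read 31570.2, 30117.9 and 31948.5 with CORT, against 26129.8, 27039.8 and 26129.8 with vehicle (0.24 ± 0.06, 0.0085). The others, 2 probes of *Ubb-ps* and those of *Eif3f*, *H2ac10*, *Rbbp7*, *CYTB* and *Btf3*, were between -0.21 (*CYTB*) and 0.23 (*H2ac10*), and none of these 7 calls was kept whichever array was left out.

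Probes of 1 gene did not always agree. Of 3715 genes with 2 or more tested probes, 190 had all probes called the same way, 1228 had some called and none the other way, and 56 had probes called in both directions. For *Actb*, the cytoplasmic actin often used as a reference, 5 probes gave -0.64, -0.60, 0.03, 0.33 and 0.73. The 2 falls were at its dimmest probes, which averaged 83.5 and 80.6 with CORT and 132 and 122 with vehicle, and the 2 rises at bright ones.

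The response was measured again in T3+CORT against T3, on the other 6 arrays. These had shared in the estimate of spread behind the calls above, so separate fits were used here. When each set of 6 arrays was fitted alone, 5110 probes were called in CORT against vehicle and 2323 (13.1%) in T3+CORT against T3. Of the 5110, 1796 had the same sign and were called in the second set (35.1% of the first and 77.3% of the second list), and 4 were called with the opposite sign. The sign was shared by 95.5% of the 5110, against 69.1% of probes not called. Of the 425 probes at least 1.5-fold changed, 422 had the same sign and 353 were also called. A slide common to both CORT groups, if there was one, would enter both sets. Among the large responses, *Pdk4* changed by 2.63 with T3 and 2.33 without, *Fkbp5* by 1.35 and 1.42, and *Phlda1* by -1.48 and -1.63. Others had smaller estimates with T3. *Plin4* changed by 1.46 with T3 and 2.16 without, a difference that was called (adjusted p = 0.049). *Sphk1* changed by 1.12 with T3 and 1.70 without (0.08) and *Egr1* by -1.11 and -1.55 (0.49). *Ccn1*, the largest fall without T3, averaged 529 with T3+CORT and 1091 with T3, and 324 with CORT and 1027 with vehicle (0.45). The differences for these 3 were not called. The difference between the 2 effects was called for 20 probes, of which 13 were also called in CORT against vehicle and 8 were among the 425.

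**Figure D5:**
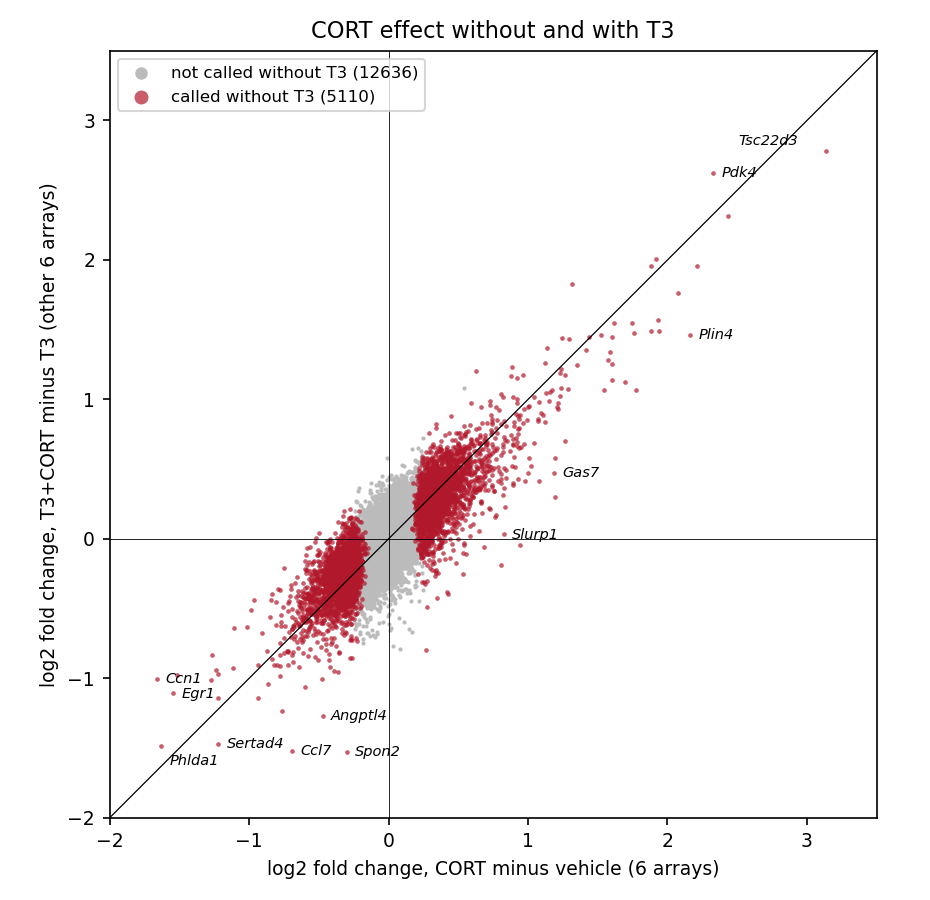
CORT effect in 2 sets of arrays with none in common, each fitted alone: log2 fold change CORT minus vehicle (x axis) and T3+CORT minus T3 (y axis), 1 point per tested probe. Red points are the 5110 probes called in CORT against vehicle, grey points the others, and the diagonal marks equal effects. *Tsc22d3* and *Pdk4* lie at the upper right, *Phlda1* and *Egr1* at the lower left, and *Spon2* and *Slurp1* away from the diagonal.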

How the data were processed

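The groups and replicate numbers came from the sample labels. The normalized intensity values deposited by the authors, made in BeadStudio with rank invariant normalization by the study's methods, were taken to log2 without further correction, and on all 12 arrays they share 1 distribution to within 0.5 at any rank. The detection p-values in the table of raw data deposited by the authors set the limit of detection. Of their 12 columns 6 hold signal (36.5% to 37.6% of probes pass a detection p of 0.05, against at most 5.4% in the others), and the dimmest probe detected there ranks at a normalized intensity of 87.0. The 12 raw signal columns beside them matched no sample label and were not used.

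Probes at or above 87.0 on at least 3 of 12 arrays were tested with limma 3.58.1 in R 4.3.3 (lmFit, eBayes with trend) in 1 model of the 4 group means, with 8 residual degrees of freedom. P-values are two-sided, and Benjamini-Hochberg adjustment was over 17746 probes. A probe was called at an adjusted p under 0.05, and "kept" means called in the same direction. T3+CORT against T3 was also fitted on its own 6 arrays, and the difference between the CORT effects with and without T3 was tested as an interaction. The scripts were tested on simulated data. Where 1 group had no array at the limit, the fold is a bound against 87.0, from means of log2 values.

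Symbols came from the platform annotation (34885 probes with 1 symbol, 18 with several, 10378 with none, which were left unnamed unless the study's tables name the probe). Those tables list probes that the study called regulated on these arrays. Gene lists, 35 with 702 genes tested at their brightest probe, were counted without a set test. Members and lists were chosen with earlier results of these data known. Named are the 20 largest rises and falls among called probes whose arrays do not overlap, the 5 largest changes each way among probes above the limit in only 1 group, list members, fixed receptor and reference genes, and the 5 brightest calls each way. 1 gene that this rule names is not reported here. The mitochondrial ND2 and COXII probes, 1 *Rn18s* probe, *Rn28s1*, the small nucleolar RNAs, the dimmer probes set beside a named one, *Hdc*, *Nrm* and the genes whose CORT effect differed with T3 were named after their values were seen. Promoter sequences are those of RefSeq, build GRCm38.p6. Alternatives tried were other limits, normexp with an offset of 16, a pseudocount of 16, cyclic loess, centring on reference genes, array weights and no trend. Also tried were the 6 arrays alone, a replicate block, Welch's t-test and leaving out each array. The study's methods name Welch's t-test for synergy and no test for the comparisons with vehicle. The fit of the probes below the limit and the interaction under these alternatives were added after seeing the data.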

Additional observations from a re-analysis of the deposited data

Results flagged for a closer look

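The CORT effect differed with T3 from that without it for 12 of the named probes, by the interaction in limma (adjusted p under 0.05, over 17746 probes). *Spon2*, a matrix protein of the spondin family, was lower by -1.53 with T3, against -0.30 without (difference -1.23, adjusted p = 5.0e-04). *Ccl7* was at -1.52 with T3, against -0.69 without (difference -0.83, 0.024), and *Angptl4* at -1.27, against -0.47 (difference -0.80, 0.018). For these 3 the fall was larger with T3.

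In the others a rise was smaller or absent with T3. *Gas7*, a cytoskeletal protein, had 3 probes that rose by 1.19, 1.19 and 0.81 without T3, and the differences were -0.71, -0.89 and -0.99 (adjusted p 0.024, 0.037 and 0.023). *Slurp1*, a secreted protein of the Ly6 family, was at 0.03 with T3, against 0.83 without (difference -0.79, 0.024). Its vehicle arrays were all below the limit of detection, so the rise without T3 was at least 1.64-fold. *Col6a2*, a chain of collagen VI, was at 0.17 with T3, against 0.77 (difference -0.60, 0.041), although the brightest *Col6a2* probe was at 0.05 without T3. *Plec*, the linker protein plectin, was at -0.18 with T3, against 0.48 without (difference -0.66, 0.014). *Plin4* still rose with T3, by 1.46 against 2.16 without (difference -0.70, 0.049).

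*Dysf*, the membrane repair protein dysferlin, and *Popdc3* had opposite signs in the 2 settings. *Dysf* was at -0.38 with T3, against 0.42 without (difference -0.80, 0.023), and *Popdc3* at -0.49, against 0.27 (difference -0.76, 0.014). T3 replicate 2 lay apart from T3 replicates 1 and 3 on the second principal component (21.6, against -15.0 and -4.8), and leaving it out also gave 20 called differences over all tested probes. Leaving out 1 of the other arrays gave fewer, down to 2 without CORT replicate 2 or vehicle replicate 2.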

How the results depend on the processing

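The counts moved with the array left out, the scaling and the test. Leaving out 1 array gave 1130 to 2364 probes higher, with 1130 without vehicle replicate 1 and 1131 without vehicle replicate 3, and 1139 to 2568 lower, with 1139, 1272 and 1223 without vehicle replicates 1, 2 and 3. It gave 425 to 482 probes at the study's thresholds, 692 to 2320 repeated in T3+CORT against T3, with 692, 713 and 742 without T3+CORT replicates 1, 2 and 3, 173 to 286 list members called (226 with all arrays), and 2 to 20 differences between the CORT effects, with 10, 2 and 11 without CORT replicates 1, 2 and 3, 7, 2 and 4 without vehicle replicates 1, 2 and 3, and 7, 3 and 5 without T3+CORT replicates 1, 2 and 3. Centring on reference genes gave 857 probes lower, array weights 2889 lower, 2915 repeated and 59 differences, and normexp 646 at the study's thresholds. Welch's t-test gave 154 higher and 107 lower at an adjusted p under 0.05 (4854 at an unadjusted p under 0.05), 27 list members and 0 repeated (1965 with an unadjusted p under 0.05 and the same sign in both sets, and 1796 by limma). Taking any tested probe of a list member gave 273 called members. The dim 28S probe *Rn28s1* ranged between -0.13 and 0.08 with 1 array left out, turning to -0.13 without vehicle replicate 1 and -0.08 without CORT replicate 3. With a replicate block 1790 were higher and 1931 lower, 230 list members were called, 1843 repeated and 18 differences were called. Deviations from the group mean of same-numbered CORT and vehicle arrays correlated at -0.103, -0.105 and 0.088, so no effect shared by replicate number was seen. The labels do not say whether the numbers pair the arrays.

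Of 280 named probes called, 237 kept their call after centring on reference genes, 273 with cyclic loess, 214 to 233 on leaving out 1 CORT or vehicle array and 46 with Welch's t-test. In these settings 0 turned direction among those called. The number of arrays, 3 per group, limits the precision of small changes.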
